A study of Oryctolagus cuniculus with 15 samples.

Results

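Rabbit corneal keratocytes embedded in a 3D matrix of fibrillar type I collagen (3DF) were compared with the same kind of cells on a 2D dish coated with type I collagen (2DC), across all genes. The libraries were chosen by their labels, 3 of 3DF and 3 of 2DC, and are 6 of the 15 bulk RNA-seq libraries of the series. In both conditions first-passage keratocytes of New Zealand white rabbits were kept in serum-free medium until RNA was isolated on day 6. A 3DF matrix was seeded with 100000 cells in bovine collagen. Both conditions were incubated for 15 min in a digestion medium before lysis, but the 3DF cells were freed from the matrix and pelleted, whereas the 2DC cells were lysed in the dish. Each library holds the RNA of several pooled dishes or matrices from a separate experiment. Cells in 3D had a lower effective density and fewer contacts with each other, so that matrix geometry, collagen structure, density and the recovery of the cells cannot be told apart in this comparison. The remaining conditions served only as a reference: 3DF_50 with 50000 cells per matrix, 2DC_L lysed in the dish without digestion, and 2DF, the cells on top of fibrillar collagen.

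Keratocytes are the resident cells of the corneal stroma. In the healthy cornea they are quiescent, lie between collagen lamellae, and make the small leucine-rich proteoglycans that space the collagen fibrils, together with soluble enzymes known as corneal crystallins. After injury they can re-enter the cell cycle and turn into fibroblasts or contractile myofibroblasts, which lay down fibronectin, tenascin and scar collagens. Stiff, flat culture surfaces favour actin stress fibres and focal adhesions, whereas a soft fibrillar matrix surrounds the cell on all sides.

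Between 18770056 and 31804255 reads were counted per library in these conditions. The cells carried the markers of keratocytes in every library. The counts of COL1A1, the main chain of type I collagen, took 6.76% to 9.23% of the reads of a 2DC library and 2.97% to 3.75% of a 3DF library. Levels are given as FPKM (reads scaled by gene length and library size), and where 3 values follow each other they are those of replicates 1, 2 and 3. KERA, the gene of the stromal proteoglycan keratocan, had 3296, 3070.1 and 2359.5 FPKM in 2DC and 4556, 2756 and 2706 in 3DF. LUM and DCN, which encode the proteoglycans lumican and decorin, lay between 7029 and 12800 FPKM in all 6 libraries. ALDH1A1 and TKT, the genes of the corneal crystallins, lay between 495 and 919 FPKM. None of these 5 markers was called.

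Of 13493 genes with enough counts to be tested, 1020 were differentially expressed (DEGs), which is 7.56%. A DEG was a gene with a log2 fold change (log2FC) of 1 or more in size whose p, adjusted by the Benjamini–Hochberg method, did not exceed 0.05 in edgeR's quasi-likelihood test (two-sided). There were 437 DEGs higher in 3DF (3.24% of the genes tested) and 583 lower (4.32%). In 1017 of them the 3 libraries of one condition lay wholly above those of the other, an order that 37.8% of all genes tested showed. The balance between the directions rested on the scaling: with total counts alone as library size, 649 genes were higher and 475 lower, and the median log2 fold change over all genes was 0.19 instead of 0.01. The median size of the log2 fold change was 1.54 among higher and 1.74 among lower DEGs. The p-values measure the spread between libraries of separate experiments, 3 in each condition. The members of the gene lists described here are set against the shares of 3.24% and 4.32%.

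**Figure D1:**
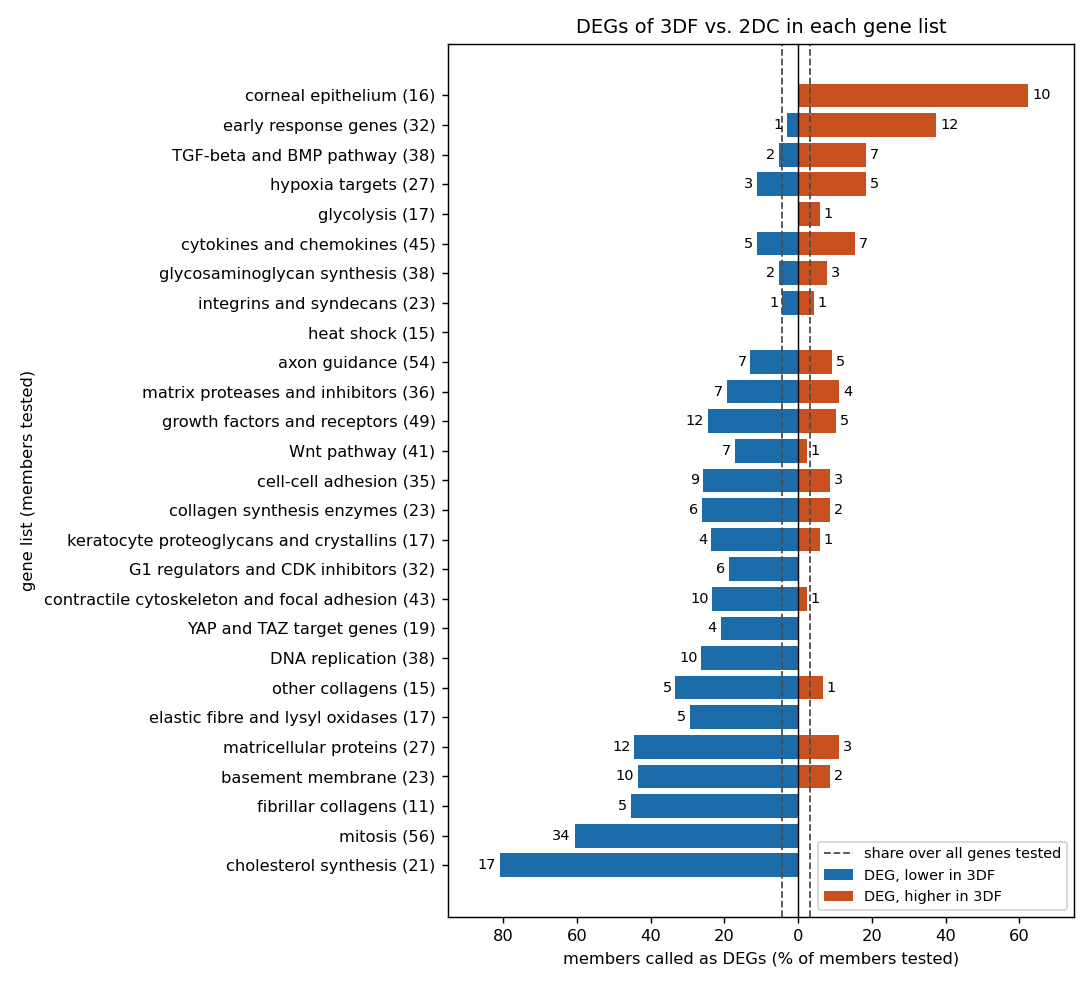
Each bar gives the DEGs of 3DF vs. 2DC as a percentage of the tested members of a gene list (number tested in brackets), lower in 3DF to the left and higher to the right, with the number of DEGs at its end. The dashed lines mark the shares over all genes tested, 4.32% lower and 3.24% higher, and the lists of cholesterol synthesis (17 of 21 lower) and corneal epithelium (10 of 16 higher) lie at the ends. Genes near 0 in 1 condition were tested only because of their reads in the other, so the filter partly sets the shares of lists with such genes, among them corneal epithelium.

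The genes with the largest increases in 3DF were of mixed function, and 2 of them encode receptors of innate immune or vasoactive signals. They were taken from DEGs with a symbol, at least 5 FPKM in the higher condition and no overlap between the libraries. The transcription factor gene FOSB (scaffold Un0309, 121963 to 125744 in the oryCun2 assembly) had 18.5, 19.5 and 15.1 FPKM in 2DC and 268, 547 and 266 in 3DF. All 3DF libraries were far above the 2DC libraries, and replicate 2 stood above the other 3DF libraries. Its log2FC was 4.34 (SE 0.32, adjusted p = 0.000161 in edgeR). TLR4 (scaffold Un0001, 9773027 to 9786208), the receptor for bacterial lipopolysaccharide, had 0.874, 0.920 and 0.870 FPKM in 2DC and 14.5, 11.7 and 14.3 in 3DF. The 2DC libraries hardly differed from each other, and the change of 3.92 had an SE of 0.14 (edgeR adjusted p = 7.83e-06). EDNRB, an endothelin receptor, rose from 2.68 ± 0.684 to 27.5 ± 7.30 FPKM (mean ± SD, n = 3), a 10.2-fold difference in the means (edgeR adjusted p = 0.000163). The orphan receptor gene GPR162 rose 11.9-fold (edgeR adjusted p = 0.000161).

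The other large increases were in genes of several kinds. PDK4, a kinase that holds back pyruvate oxidation, had 18.9, 11.4 and 9.26 FPKM in 2DC and 145, 100.1 and 98.8 in 3DF, with every 3DF library at 98.8 FPKM or more and every 2DC library at 18.9 FPKM or less. Its log2FC was 3.10 (SE 0.28, adjusted p = 0.00037 in edgeR). FHL1, a LIM-domain protein of the cytoskeleton, rose from 1.60 ± 0.425 to 13.3 ± 3.66 FPKM and FAM216B from 9.07 ± 2.74 to 78.0 ± 21.6 FPKM (edgeR adjusted p = 0.000287 and 0.000297). TLL1, a proteinase that cleaves the C-terminal propeptide of procollagen, rose by 3.11 on the log2 scale, CTHRC1 by 3.26, SYT6 by 2.94 and TSPAN11 by 2.94, with edgeR adjusted p between 0.000184 and 0.000431. CRYGS, a lens crystallin gene, had 3.96, 6.30 and 12.5 FPKM in 3DF, a wide spread, and less than 1 FPKM in each 2DC library (edgeR adjusted p = 0.00283).

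The largest decreases included genes of the matrix, of DNA synthesis and of sterol metabolism, which are described with their groups. Among the others, SLCO1B3 (chromosome 8, 18828099 to 18892742), an organic anion transporter, had 2.92, 10.4 and 18.9 FPKM in 2DC and 0.116, 0.0914 and 0.0205 in 3DF. The 2DC libraries differed widely, but the lowest of them was still far above every 3DF library (log2FC -7.05 (SE 0.85, adjusted p = 0.00121 in edgeR)). TINAGL1, a secreted protein of basement membranes, had 20.1, 29.1 and 30.2 FPKM in 2DC and 0.681, 1.23 and 0.623 in 3DF, which is 31.4-fold lower in the means (edgeR adjusted p = 0.000102). PTX3, a long pentraxin of the innate response, fell from 71.3 ± 74.3 to 0.602 ± 0.0817 FPKM (edgeR adjusted p = 0.00164). GAP43, a membrane protein of growing cell processes, fell by 4.53 on the log2 scale (edgeR adjusted p = 0.000297), and TCF19, a gene tied to the G1/S transition, had 1.15, 5.79 and 11.8 FPKM in 2DC and 0, 0.0867 and 0 in 3DF (edgeR adjusted p = 0.00397).

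Most genes of the keratocyte's own proteoglycans and crystallins were not called, whereas several genes of fibrillar collagen fell. The list of proteoglycans and crystallins also holds other genes, such as APOD and CLU. Of its 17 genes tested, 1 was higher, 4 were lower and 12 were not called, and the median log2 fold change was -0.31. APOD, a lipid carrier that is abundant in quiescent stromal cells, was the higher one, with 1147, 1100.1 and 892 FPKM in 2DC and 3099.9, 2759 and 3706 in 3DF and a log2FC of 1.60 (SE 0.17, adjusted p = 0.0006 in edgeR). ASPN, the gene of the proteoglycan asporin, had 236, 319 and 425 FPKM in 2DC and 27.5, 33.8 and 20.7 in 3DF, so that the lowest 2DC library was several-fold above the highest 3DF library (log2FC -3.59 (SE 0.27, adjusted p = 0.000161 in edgeR)). BGN, the gene of biglycan, fell from 357 ± 47.6 to 127 ± 20.1 FPKM and CLU, the gene of the chaperone clusterin, from 1010.5 ± 294 to 355 ± 114 FPKM (edgeR adjusted p = 0.0008 and 0.0105). FMOD, the gene of fibromodulin, fell by 1.43 on the log2 scale (edgeR adjusted p = 0.0165) and lost its call without 2DC replicate 2 (adjusted p = 0.0622) and without 3DF replicate 3 (adjusted p = 0.0643).

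Of 11 fibrillar collagen genes, 5 were lower, none was higher and 6 were not called (median log2 fold change -0.81). COL1A1 had 20930, 18084 and 14233 FPKM in 2DC and 6092, 5733 and 7304 in 3DF. The groups were apart by more than their spread, and the log2FC was -1.49 (SE 0.21, adjusted p = 0.00249 in edgeR). COL1A2, its partner chain in type I collagen, had 17353, 16426 and 12404 FPKM in 2DC and 7472, 7048 and 7840.2 in 3DF, with a log2FC of -1.06 (SE 0.19, adjusted p = 0.00738 in edgeR), close to the threshold. The call was lost with library size alone (log2FC -0.87), without 2DC replicate 1 (log2FC -0.96) and with the prefix term (log2FC -0.95). The prefix term is a covariate for the prefix of the library names, in a fit of all 15 libraries, and between 2DC and 3DF only 2DC replicate 3 and 3DF replicate 1 share a prefix. COL11A1, a minor fibril chain, fell from 206 ± 48.0 to 54.5 ± 3.38 FPKM and COL5A3, a chain of type V collagen, from 23.5 ± 8.50 to 1.16 ± 0.447 FPKM (edgeR adjusted p = 0.000389 and 0.00027). COL3A1, the scar-type collagen, was low in both conditions, with 1.43, 2.32 and 0.725 FPKM in 2DC and 0.243, 0.204 and 0.310 in 3DF (edgeR adjusted p = 0.00524). Of 23 genes of enzymes and chaperones of collagen synthesis, 6 were lower and 2 higher (median -0.84). P4HA1, P4HA2 and P4HA3, which encode the catalytic subunits of prolyl 4-hydroxylase, fell by 1.20, 1.44 and 4.65 on the log2 scale (edgeR adjusted p = 0.000997, 0.000273 and 0.000511). P3H4, ADAMTS14 and FKBP10 fell with them. The 2 that rose were the procollagen proteinase genes TLL1 and ADAMTS3, the latter from 3.75 ± 0.501 to 8.54 ± 0.541 FPKM (edgeR adjusted p = 0.000802).

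Genes of basement membranes, the sheets on which epithelia and endothelia rest, were lower in 3DF more often than most groups: of 23 tested, 10 were lower, 2 higher and 11 not called, with a median log2 fold change of -1.05. NID2 (chromosome 17, 70920218 to 70996320), which encodes the laminin and collagen IV linker nidogen 2, had 34.0, 34.2 and 36.9 FPKM in 2DC and 0.930, 0.926 and 0.900 in 3DF. The replicates of each condition nearly coincided, and its change had the smallest edgeR adjusted p of any gene named here (log2FC -5.26 (SE 0.12, adjusted p = 5.38e-07 in edgeR)). COL4A3 and COL4A4, neighbouring chains of type IV collagen, had 289, 271 and 187 and 181, 176 and 115 FPKM in 2DC. In 3DF they had 45.3, 41.7 and 35.3 and 43.2, 39.5 and 35.8 FPKM, without overlap (edgeR adjusted p = 0.000163 and 0.000453). COL4A1 and COL4A2, the common chains of that collagen, stood at 1.95 ± 0.643 and 1.31 ± 0.413 FPKM in 2DC, far below COL4A3 per length, and fell by 1.48 and 1.58 on the log2 scale (edgeR adjusted p = 0.0196 and 0.0187). COL4A1 lost its call without 2DC replicate 2 (adjusted p = 0.0808) and without 3DF replicate 3 (adjusted p = 0.0715), and COL4A2 without 2DC replicate 2 (adjusted p = 0.0816) and without 3DF replicate 3 (adjusted p = 0.0665).

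HSPG2, the gene of the heparan sulfate proteoglycan perlecan, fell from 53.2 ± 3.54 to 19.7 ± 6.08 FPKM (log2FC -1.44 (SE 0.23, adjusted p = 0.00397 in edgeR)). COL15A1, COL7A1, LAMA2 and LAMA5 were also among the lower DEGs. The higher ones were laminin chains at low levels, LAMC3 with 0.149, 0.0664 and 0.238 FPKM in 2DC and 0.641, 1.23 and 1.10 in 3DF (edgeR adjusted p = 0.00581) and LAMA1, which rose by 1.09 on the log2 scale (edgeR adjusted p = 0.0157) and lost its call with the prefix term (adjusted p = 0.064), without 2DC replicate 1 (adjusted p = 0.0509), without 2DC replicate 2 (adjusted p = 0.0677) and without 3DF replicate 2 (adjusted p = 0.0526). Of 15 other collagens, 5 were lower and 1 higher (2 without 3DF replicate 1, median -0.66). COL14A1, a collagen on the surface of fibrils, fell from 442 ± 70.8 to 149.9 ± 8.77 FPKM, and COL8A2, a short-chain network collagen, from 304 ± 67.6 to 123 ± 32.9 FPKM (edgeR adjusted p = 0.000485 and 0.00793). The transmembrane collagen gene COL17A1, which epithelial cells use to anchor themselves, rose from 0.114 ± 0.111 to 0.861 ± 0.376 FPKM (edgeR adjusted p = 0.0158), a call lost with the prefix term (adjusted p = 0.081) and without 2DC replicate 2 (adjusted p = 0.0686).

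Matricellular proteins are secreted into the matrix to signal rather than to bear load. Their genes, listed here with those of other matrix proteins such as fibronectin and the matrilins, fell more often than they rose. Of 27 tested, 12 were lower, 3 higher and 12 not called (median -0.64). TNC (scaffold Un0001, 12560675 to 12654800), the gene of tenascin C, had 20.7, 43.4 and 75.2 FPKM in 2DC and 0.422, 0.441 and 0.325 in 3DF. Although the 2DC libraries spanned several-fold, none came near the 3DF libraries (log2FC -6.88 (SE 0.51, adjusted p = 0.000161 in edgeR)). FN1, the gene of fibronectin, had 581, 923 and 875 FPKM in 2DC and 196, 284 and 258 in 3DF, a 3.25-fold fall of the mean with no overlap (log2FC -1.70 (SE 0.23, adjusted p = 0.00189 in edgeR)). CTGF, the gene of connective tissue growth factor, fell from 185 ± 89.3 to 9.32 ± 3.15 FPKM (edgeR adjusted p = 0.000389). POSTN, TGFBI, SPARC, VCAN, THBS3, SMOC1, SMOC2, MATN3 and CYR61 were lower too, of which POSTN, the gene of periostin, had 5.86, 4.16 and 2.03 FPKM in 2DC and 1.12, 0.581 and 0.587 in 3DF (edgeR adjusted p = 0.0062). MATN3 lost its call without 2DC replicate 1 (adjusted p = 0.0623) and without 2DC replicate 3 (adjusted p = 0.0567). The 3 higher genes were CTHRC1, MATN4 and SPON1. MATN4, a matrilin, rose from 20.4 ± 5.84 to 81.1 ± 33.7 FPKM (edgeR adjusted p = 0.00461), and SPON1, a spondin, from 5.47 ± 0.850 to 11.2 ± 1.08 FPKM (edgeR adjusted p = 0.00286), the latter not called with the prefix term (adjusted p = 0.148), without 2DC replicate 1 (log2FC 0.90) and without 3DF replicate 2 (log2FC 0.94).

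Of 17 genes of elastic fibres and of the lysyl oxidases, which crosslink collagen and elastin, 5 were lower, none was higher and 12 were not called (median -0.58). LOX, the lysyl oxidase gene, had 499, 532 and 477 FPKM in 2DC and 149, 111 and 115 in 3DF, with a log2FC of -2.02 (SE 0.15, adjusted p = 0.000165 in edgeR). LOXL4 fell from 28.8 ± 18.4 to 2.17 ± 0.158 FPKM and LOXL2 from 141 ± 27.9 to 50.4 ± 10.8 FPKM (edgeR adjusted p = 0.00083 and 0.00249). FBN2, which encodes a fibrillin, and EMILIN2 completed the lower group. FBN1, the main fibrillin gene, had 79.4, 85.3 and 94.0 FPKM in 2DC and 44.0, 45.7 and 49.5 in 3DF. The groups of FBN1 were apart, but the log2 fold change of -0.90 was under the threshold of 1. ELN, the gene of elastin, had 1.34, 0.261 and 0.148 FPKM in 2DC and 0.163, 1.70 and 0.527 in 3DF, with wide spread and overlap (edgeR adjusted p = 0.814).

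**Figure D2:**
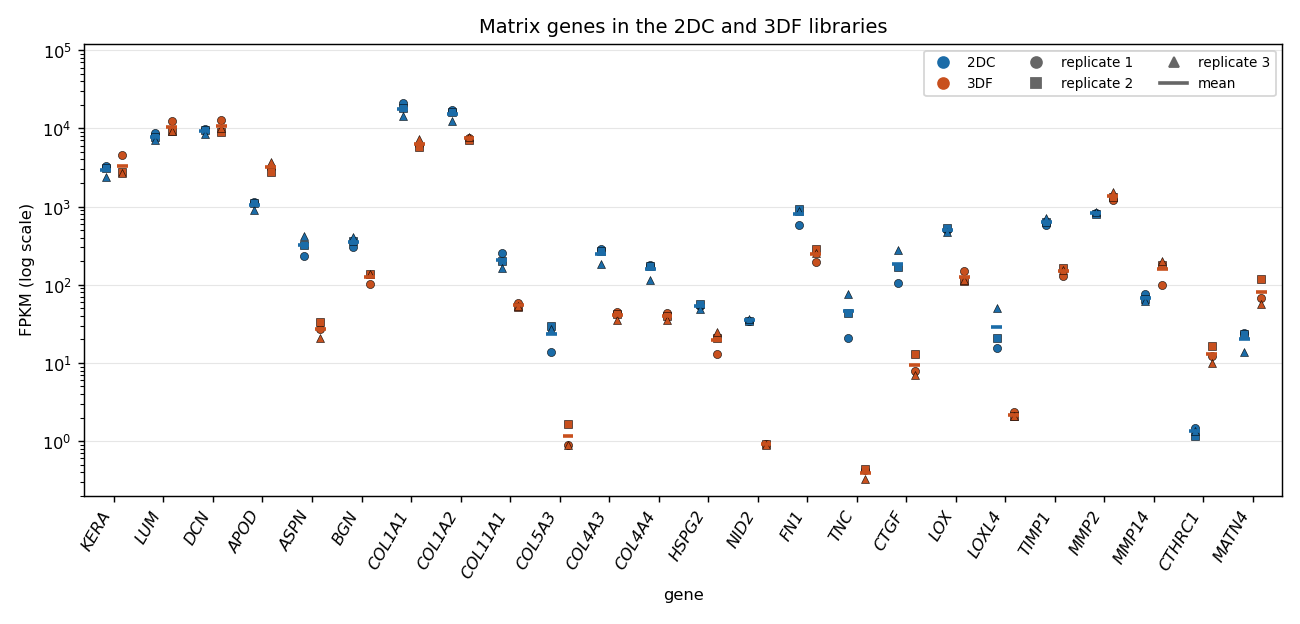
FPKM on a log scale for matrix genes in the 3 libraries of 2DC (blue) and of 3DF (orange), with a marker shape for each replicate and a short line at each mean. KERA, LUM and DCN overlap or nearly so, whereas NID2, TNC, COL5A3 and LOXL4 are lower and CTHRC1 and MATN4 higher in every 3DF library.

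Matrix proteases changed in both directions. Of 36 proteases and inhibitors tested, 4 were higher, 7 lower and 25 not called (median 0.11). The higher genes numbered 7 with library size alone and 2 without 2DC replicate 2, and the lower ones 11 with the prefix term. MMP14, the membrane-bound matrix metalloproteinase, had 76.5, 66.6 and 62.8 FPKM in 2DC and 98.3, 181 and 200 in 3DF and a log2FC of 1.21 (SE 0.25, adjusted p = 0.0131 in edgeR). All 3DF libraries were higher, but replicate 1 was closer to 2DC than the others were, and the call was lost with the prefix term (log2FC 0.98), without 2DC replicate 2 (adjusted p = 0.0612) and without 2DC replicate 3 (adjusted p = 0.0529). MMP2, the gelatinase that MMP14 activates, had 838, 811 and 846 FPKM in 2DC and 1229, 1331 and 1537 in 3DF, a log2FC of 0.71 (SE 0.14, adjusted p = 0.0108 in edgeR) that was under the threshold of 1. MMP1, the interstitial collagenase, rose from 0.0697 ± 0.0614 to 0.973 ± 0.519 FPKM (edgeR adjusted p = 0.0113), but not with the prefix term (adjusted p = 0.186). TIMP1, the tissue inhibitor of metalloproteinases, fell from 638 ± 66.1 to 148 ± 18.1 FPKM (log2FC -2.12 (SE 0.14, adjusted p = 0.000159 in edgeR)). MMP16, MMP19, ADAMTS12 and ADAMTS18 fell by 2.57, 2.15, 2.14 and 3.14 on the log2 scale, with edgeR adjusted p between 0.000297 and 0.00313, and TIMP3 and ADAMTS5 were the other lower DEGs.

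The integrins, by which cells hold the matrix, were mostly not called. Of 23 integrins and syndecans tested, 1 was higher and 1 lower, close to the shares over all genes, and the median of -0.08 turned to 0.09 with library size alone. ITGB1, the common beta chain of collagen and fibronectin receptors, had 247, 269 and 264 FPKM in 2DC and 170.1, 162 and 153 in 3DF. The 3DF libraries were all below the 2DC libraries, but the log2FC of -0.70 (SE 0.11, adjusted p = 0.00516 in edgeR) did not reach 1. ITGA11, the alpha chain of a collagen receptor, had -0.61 and ITGA5, the alpha chain of the fibronectin receptor, -0.45 (edgeR adjusted p = 0.0245 and 0.0679). ITGA2, another collagen receptor chain, was at 7.20, 7.40 and 6.70 FPKM in 2DC and 9.83, 6.25 and 6.87 in 3DF, with overlap. The DEGs were the heparan sulfate proteoglycans of the cell surface: SDC1 fell from 60.4 ± 2.71 to 16.1 ± 3.79 FPKM, and SDC4 rose from 37.3 ± 3.04 to 77.9 ± 6.43 FPKM (edgeR adjusted p = 0.000433 and 0.000895). SDC4 had a log2 fold change of 1.05, which was below 1 with the prefix term (log2FC 0.90) and without 3DF replicate 2 (log2FC 0.98).

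Most genes of the contractile cytoskeleton were not called, and all but 1 of those called were lower in 3DF. Of 43 tested, 10 were lower, 1 higher and 32 not called, and 33 had a log2 fold change below 0 (median -0.43, and -0.25 with library size alone). ACTA2, the smooth muscle actin of myofibroblasts, was low throughout, with 0.873, 1.88 and 1.19 FPKM in 2DC and 0.180, 0.0666 and 0.112 in 3DF. Every 3DF library was below every 2DC library (log2FC -3.40 (SE 0.49, adjusted p = 0.00276 in edgeR)). TAGLN, the gene of the actin-binding protein transgelin, had 3.80, 5.23 and 4.65 FPKM in 2DC and 0.414, 0.306 and 0.642 in 3DF (log2FC -3.34 (SE 0.32, adjusted p = 0.000453 in edgeR)). MYL9, a regulatory light chain of myosin, fell from 34.8 ± 11.1 to 4.59 ± 2.20 FPKM and CSRP2, a LIM protein of smooth muscle, from 21.6 ± 3.04 to 2.98 ± 0.925 FPKM (edgeR adjusted p = 0.00151 and 0.000238). CAV1, the structural protein of caveolae, had 4.37, 8.41 and 20.6 FPKM in 2DC and 0.398, 0.331 and 0.494 in 3DF, which is 27.4-fold lower in the mean (edgeR adjusted p = 0.00136), and CAV2 fell as well. TPM2, PDLIM7 and VIM were also among the lower DEGs. ACTB, the cytoplasmic beta-actin gene, had 1034, 1126 and 1164 FPKM in 2DC and 597, 777 and 544 in 3DF, a log2FC of -0.80 (SE 0.16, adjusted p = 0.0123 in edgeR), which did not reach 1. MYLK, the kinase of myosin light chains, was called higher at 0.359 ± 0.122 to 0.857 ± 0.181 FPKM (edgeR adjusted p = 0.0316) but in only 1 of the 6 fits that left out a library, namely without 3DF replicate 1. It was not called with the replicate block (adjusted p = 0.0506), with the prefix term (adjusted p = 0.154), without 2DC replicate 1 (adjusted p = 0.0531), without 2DC replicate 2 (adjusted p = 0.0672), without 2DC replicate 3 (adjusted p = 0.0598), without 3DF replicate 2 (adjusted p = 0.0662) and without 3DF replicate 3 (adjusted p = 0.112).

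YAP and TAZ are coactivators that enter the nucleus of spread cells under tension. Of 19 genes known as their targets, 4 were lower and none higher (median -0.33, and -0.15 with library size alone), and without 2DC replicate 3 there was 1 higher. CTGF is among them. CYR61, another matricellular target, had 941, 1024 and 972 FPKM in 2DC and 155, 336 and 94.5 in 3DF. The 2DC libraries were nearly equal and the 3DF libraries were spread, and the log2FC was -2.33 (SE 0.41, adjusted p = 0.00668 in edgeR). In 2DC_L, lysed without digestion, the mean of CYR61 was 102 FPKM, below the mean of 195 in 3DF. In 3DF_50 vs. 2DC_L CYR61 was not called (log2FC 0.54), while 5 genes of the list were lower and 2 higher. AMOTL2 fell from 204 ± 13.8 to 65.5 ± 15.1 FPKM and AJUBA from 25.9 ± 2.27 to 9.01 ± 0.587 FPKM (edgeR adjusted p = 0.000683 and 0.000206).

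The genes of cell division that were called were all lower in 3DF. Of 56 mitosis genes tested, 34 were lower and none higher, with a median log2 fold change of -2.60. Genes near 0 in 3DF, such as NEK2, were tested only because of their 2DC reads, so the filter partly sets this share and median. Of 38 DNA replication genes, 10 were lower and none higher (median -0.80), and of 32 G1 regulators and CDK inhibitors, 6 were lower and none higher (median -0.02, and 0.15 with library size alone). MKI67, the proliferation marker, had 0.199, 1.09 and 3.36 FPKM in 2DC and 0.00417, 0.00462 and 0 in 3DF. These levels stand for 998 reads over the 2DC libraries and 2 over the 3DF libraries, a ratio of 464 after scaling (95% exact interval 128 to 3837, for counting error only). The mitotic kinase gene CDK1 had 425 reads over the 2DC libraries and 2 over the 3DF libraries, a ratio of 198 after scaling (95% exact interval 54.4 to 1637, for counting error only). CENPF had 570 reads against 1, and NEK2, with 0 reads in 3DF against 140 in 2DC, was at least 43.4-fold lower, taking 3 reads over the condition as the floor. Their edgeR adjusted p were 0.00539 for MKI67, 0.00847 for CDK1, 0.00507 for CENPF and 0.0143 for NEK2.

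In replication, RRM2, a subunit of ribonucleotide reductase, had 4.65, 17.3 and 42.2 FPKM in 2DC and 1.55, 1.29 and 1.81 in 3DF. TK1, the thymidine kinase of S phase, had 2.55, 10.5 and 24.4 FPKM in 2DC and 0.0932, 0.241 and 0.270 in 3DF, and the DNA polymerase gene POLE had 0.363, 1.09 and 2.23 FPKM in 2DC and 0.0651, 0.0943 and 0.130 in 3DF. In each of these genes 2DC replicate 1 was lowest and replicate 3 highest, yet replicate 1 remained above all 3DF libraries. The log2FC values were -3.80 (SE 0.71, adjusted p = 0.00878 in edgeR) for RRM2, -5.96 for TK1 and -3.68 for POLE (edgeR adjusted p = 0.00384 and 0.00726). CLSPN and CDC45, which act at replication forks, were near 0 in 3DF (edgeR adjusted p = 0.0072 and 0.00312). PCNA, the sliding clamp, overlapped with 20.3, 34.8 and 58.9 FPKM in 2DC and 25.8, 20.7 and 21.8 in 3DF and was not called (edgeR adjusted p = 0.17), nor was the helicase gene MCM2 (0.0942). Without 2DC replicate 1 both were called, with log2 fold changes of -1.05 and -1.14.

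Among the regulators of G1, the transcription factor gene E2F1 had 0.475, 2.31 and 3.85 FPKM in 2DC and 0.0180, 0.0995 and 0.0669 in 3DF (log2FC -5.15 (SE 0.89, adjusted p = 0.00657 in edgeR)), and E2F8 fell with it (edgeR adjusted p = 0.016). CDKN2C, an inhibitor of CDK4 and CDK6, fell from 14.5 ± 5.08 to 2.86 ± 0.250 FPKM, and GADD45G, a growth arrest gene, from 13.8 ± 2.39 to 2.77 ± 1.23 FPKM (edgeR adjusted p = 0.000635 and 0.00276). CDKN1B, the inhibitor p27, had 31.4, 26.1 and 23.2 FPKM in 2DC and 36.0, 32.1 and 34.3 in 3DF (edgeR adjusted p = 0.135), and CDKN1A, the inhibitor p21, overlapped between the conditions (edgeR adjusted p = 0.744). The phosphatase gene CDC25A was called lower (edgeR adjusted p = 0.0234) but not without 2DC replicate 2 (adjusted p = 0.0678), without 2DC replicate 3 (adjusted p = 0.0663), without 3DF replicate 2 (adjusted p = 0.0638) and without 3DF replicate 3 (adjusted p = 0.0769). The number of mitosis genes called lower depended on single libraries. It was 51 without 2DC replicate 1, 23 and 22 without 2DC replicates 2 and 3, and 28, 19 and 14 without 3DF replicates 1, 2 and 3. In replication it was 23 without 2DC replicate 1 and 6 to 8 without any other library. Of the 34 mitosis genes, 12 were called in all 6 of these fits. DESeq2, run on all genes, called 48 mitosis genes and 17 replication genes lower, 43 and 15 of them among those tested by edgeR.

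The group with the largest share of DEGs was that of cholesterol synthesis and its control. Cells make cholesterol from acetyl-CoA through mevalonate and squalene, and the transcription factor SREBP2 raises the enzymes of this path when sterols are scarce. Of 21 genes tested, 17 were lower (81.0%), none was higher, and all 21 had a log2 fold change below 0 (median -2.58, and -2.41 with library size alone). SQLE, which oxidizes squalene, had 26.2, 31.0 and 47.4 FPKM in 2DC and 2.63, 2.77 and 2.65 in 3DF. The 2DC libraries were lowest in replicate 1 and highest in replicate 3, and no 3DF library overlapped with them. The log2FC of SQLE was -3.71 (SE 0.23, adjusted p = 0.000124 in edgeR).

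TM7SF2 (scaffold Un0244, 168323 to 172200), a sterol reductase, fell from 70.3 ± 15.2 to 2.27 ± 0.555 FPKM, a log2FC of -4.97 (SE 0.24, adjusted p = 4.36e-05 in edgeR). FDPS, which makes farnesyl diphosphate, fell from 46.6 ± 12.6 to 5.09 ± 0.554 FPKM and STARD4, a cholesterol transfer protein, from 3.46 ± 2.35 to 0.183 ± 0.101 FPKM (edgeR adjusted p = 0.000159 and 0.00279). Other lower DEGs were MSMO1, NSDHL, INSIG1, MVK, HMGCS1, EBP, ACAT2, LSS, SREBF2 and FDFT1, so that early and late steps of the path were represented, as were its regulators SREBF2 and INSIG1. The 4 that were not called were SC5D, SREBF1, PMVK and HSD17B7, named here after their values were seen. Of the 17, 16 were called in each of the 6 fits without a library, and 16 to 18 members were called in any of those fits. With DESeq2 17 were called, and with a term for the library prefix 18. Of the 28 genes listed, 22 are named in the table and 1 of these had too few reads to test.

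**Figure D3:**
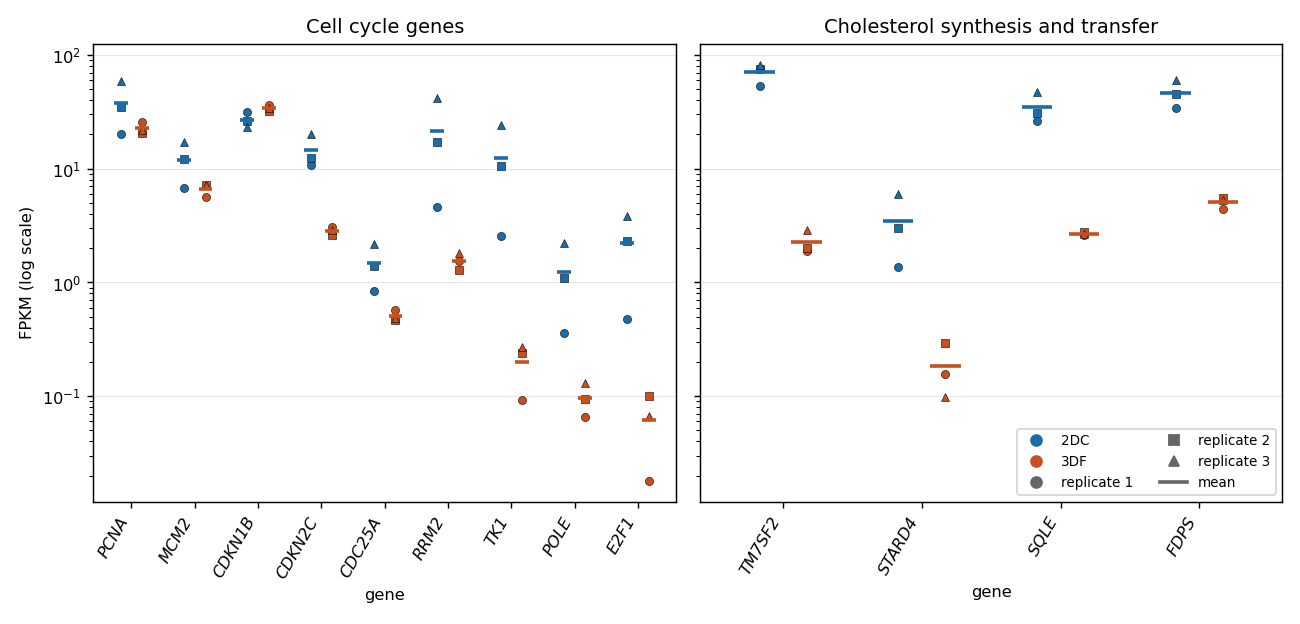
FPKM on a log scale for cell cycle genes (left) and genes of cholesterol synthesis and transfer (right) in the 3 libraries of 2DC (blue) and of 3DF (orange), with a marker shape for each replicate and a short line at each mean. In most genes 2DC replicate 3 is highest and replicate 1 lowest of the 2DC libraries, and outside PCNA, MCM2 and CDKN1B every 2DC library lies above every 3DF library.

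Genes of cell–cell adhesion were more often lower than higher: of 35 tested, 9 were lower, 3 higher and 23 not called (median -0.34). CDH8, a cadherin also known from neurons, had 32.5, 43.1 and 40.3 FPKM in 2DC and 4.71, 3.96 and 3.88 in 3DF, with little spread within a condition (log2FC -3.22 (SE 0.15, adjusted p = 4.36e-05 in edgeR)). NCAM1, the neural cell adhesion molecule, fell from 23.9 ± 4.02 to 3.22 ± 0.699 FPKM and CDH13, a cadherin without a cytoplasmic domain, from 3.17 ± 0.979 to 0.436 ± 0.124 FPKM (edgeR adjusted p = 0.000159 and 0.000683). The connexin gene GJB5 fell too, from 19.6 ± 5.85 to 5.49 ± 1.16 FPKM (edgeR adjusted p = 0.00229). GJA1, the main connexin of keratocytes, had 385, 357 and 346 FPKM in 2DC and 349, 267 and 249 in 3DF and was not called (edgeR adjusted p = 0.175), and CDH11, a mesenchymal cadherin, had a log2 fold change of -0.65, under the threshold. The protocadherin genes PCDH1 and PCDH18 rose from 0.947 ± 0.484 to 5.79 ± 1.14 FPKM and from 4.93 ± 0.452 to 11.6 ± 0.598 FPKM (edgeR adjusted p = 0.0023 and 0.000389).

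Axon guidance genes, whose products steer growing cell processes, went both ways, with 5 of 54 higher (3 without 2DC replicate 2) and 7 lower (median -0.28). NTN1 (chromosome 19, 10173170 to 10368240), the gene of the guidance cue netrin 1, had 4.83, 6.83 and 4.17 FPKM in 2DC and 23.2, 28.1 and 28.9 in 3DF. The 3DF libraries were several-fold above the 2DC libraries (log2FC 2.33 (SE 0.20, adjusted p = 0.00027 in edgeR)). UNC5B, a netrin receptor, rose from 2.63 ± 0.340 to 5.86 ± 2.05 FPKM (edgeR adjusted p = 0.0153) but was not called with the prefix term (adjusted p = 0.0515), without 2DC replicate 2 (adjusted p = 0.0705) and without 3DF replicate 2 (log2FC 0.83). UNC5D, another receptor of that family, fell from 4.78 ± 0.513 to 1.17 ± 0.164 FPKM (edgeR adjusted p = 0.000184). The ephrin receptor gene EPHA5 rose from 1.55 ± 0.344 to 7.12 ± 0.718 FPKM and the semaphorin receptor gene PLXND1 from 17.6 ± 1.91 to 44.3 ± 1.92 FPKM (edgeR adjusted p = 0.000225 and 0.000341). Class 3 semaphorins fell, SEMA3C from 141 ± 29.4 to 40.9 ± 8.36 FPKM (edgeR adjusted p = 0.000823), with SEMA3B, SEMA3D, SEMA3E and SEMA3F also lower. SEMA3E lost its call without 2DC replicate 2 (adjusted p = 0.0686), without 3DF replicate 1 (adjusted p = 0.0521) and without 3DF replicate 3 (adjusted p = 0.0772), and SEMA3D with the prefix term (adjusted p = 0.0822).

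Growth factors and their receptors went both ways. Of 49 ligands and receptors tested, 12 were lower, 5 higher and 32 not called, but with library size alone 9 were lower and 8 higher, and the median of -0.05 turned to 0.13. FGF1, a fibroblast growth factor, had 2.40, 2.32 and 2.99 FPKM in 2DC and 0.0922, 0.102 and 0.0229 in 3DF (log2FC -5.10 (SE 0.36, adjusted p = 0.000159 in edgeR)). EDN1, the vasoconstrictor endothelin 1, had 28.5, 29.3 and 31.5 FPKM in 2DC and 1.52, 3.91 and 1.46 in 3DF (log2FC -3.70 (SE 0.35, adjusted p = 0.000398 in edgeR)). Both of its receptor genes rose, EDNRB as given above and EDNRA from 3.43 ± 0.326 to 8.05 ± 0.565 FPKM (edgeR adjusted p = 0.00104). PDGFB fell from 1.45 ± 0.510 to 0.247 ± 0.0702 FPKM (edgeR adjusted p = 0.00272), and FGF9, NRG1, NTRK2, IGF1, IGFBP5, NTF3, CSF1, VEGFC and PDGFRL were lower as well. VEGFA, the vascular endothelial growth factor, had 28.6, 31.2 and 47.0 FPKM in 2DC and 83.6, 112 and 88.5 in 3DF, and KDR, its main receptor, had 60.7, 46.8 and 30.6 FPKM in 2DC and 115, 112 and 115 in 3DF. Neither overlapped, and the log2FC values were 1.41 (SE 0.21, adjusted p = 0.00336 in edgeR) and 1.30 (SE 0.22, adjusted p = 0.00625 in edgeR). HGF, hepatocyte growth factor, rose from 4.54 ± 1.55 to 10.6 ± 2.35 FPKM (edgeR adjusted p = 0.0183), but its call was lost with the prefix term (adjusted p = 0.0578), without 2DC replicate 1 (log2FC 0.99), without 2DC replicate 2 (adjusted p = 0.0766), without 3DF replicate 2 (adjusted p = 0.0526) and without 3DF replicate 3 (adjusted p = 0.0602).

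In the TGF-beta and BMP pathway, whose TGF-beta branch can turn keratocytes into myofibroblasts, 7 of 38 genes were higher (4 without 2DC replicate 2) and 2 lower (median 0.18). ID3, a target of BMP signals, had 12.1, 19.3 and 23.0 FPKM in 2DC and 66.9, 126 and 55.6 in 3DF, with all 3DF libraries at 55.6 FPKM or more (log2FC 2.19 (SE 0.34, adjusted p = 0.00417 in edgeR)). ID1 and ID2 rose as well, ID2 without a call with the prefix term (adjusted p = 0.0958), without 2DC replicate 1 (adjusted p = 0.0903), without 2DC replicate 2 (adjusted p = 0.111), without 3DF replicate 2 (adjusted p = 0.0765) and without 3DF replicate 3 (adjusted p = 0.0695). The ligand gene GDF5 rose from 1.92 ± 0.914 to 6.02 ± 1.19 FPKM (edgeR adjusted p = 0.0138; without 2DC replicate 3, adjusted p = 0.0528). BMP6 fell from 7.95 ± 0.509 to 3.29 ± 0.369 FPKM and ENG, the coreceptor endoglin, from 84.8 ± 3.60 to 36.9 ± 7.01 FPKM (edgeR adjusted p = 0.000897 and 0.0016). INHBB, BMP5 and CHRDL1 were the other higher DEGs. TGFB1 itself had 19.6, 18.7 and 17.5 FPKM in 2DC and 15.8, 21.3 and 19.3 in 3DF and did not pass (edgeR adjusted p = 0.985). In the Wnt pathway 7 of 41 genes were lower and 1 higher (median 0.09). DKK3, a secreted antagonist, fell from 201 ± 53.1 to 48.7 ± 6.30 FPKM and WNT11, a ligand, from 9.11 ± 2.46 to 2.44 ± 0.515 FPKM (edgeR adjusted p = 0.000599 and 0.0015). FRZB, another secreted antagonist, rose from 0.421 ± 0.0634 to 1.26 ± 0.181 FPKM (edgeR adjusted p = 0.00637), and AXIN2, a common target of Wnt signals, overlapped (edgeR adjusted p = 0.838). The number of lower Wnt genes was 3 without 3DF replicate 3 and 4 without 2DC replicate 2, and that of higher ones 2 without 2DC replicate 1, 3 with library size alone and 4 with the prefix term.

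Of 45 cytokine and chemokine genes, 7 were higher and 5 lower (median 0.32), and without 2DC replicate 2 there were 4 and 3. CCL2, a chemokine that attracts monocytes, had 69.2, 59.6 and 69.5 FPKM in 2DC and 275, 259.8 and 209 in 3DF (log2FC 1.90 (SE 0.14, adjusted p = 0.000161 in edgeR)), and the 3DF libraries were several-fold higher. TNFSF10, the death ligand TRAIL, rose from 0.139 ± 0.0739 to 1.71 ± 0.504 FPKM (edgeR adjusted p = 0.00125). IL6 was near 1 FPKM in 2DC and lower in 3DF (edgeR adjusted p = 0.0177), a call lost without 2DC replicate 2 (adjusted p = 0.0501), without 2DC replicate 3 (adjusted p = 0.0608) and without 3DF replicate 2 (adjusted p = 0.0584). Of 27 hypoxia targets, 5 were higher and 3 lower (median 0.23), with 3 higher without 2DC replicate 1 and 2 without 2DC replicate 2. ANGPTL4, an inhibitor of lipoprotein lipase, had 186, 124 and 123 FPKM in 2DC and 741, 953 and 821 in 3DF (log2FC 2.53 (SE 0.20, adjusted p = 0.000206 in edgeR)), whereas ADM, the peptide adrenomedullin, fell from 97.6 ± 39.8 to 35.8 ± 7.77 FPKM and STC2, a stanniocalcin, from 20.5 ± 7.68 to 5.97 ± 0.391 FPKM (edgeR adjusted p = 0.0109 and 0.00209). Of 17 glycolysis genes 1 was called, the enolase gene ENO2, which had 1.05, 1.20 and 1.19 FPKM in 2DC and 3.58, 4.96 and 3.48 in 3DF (edgeR adjusted p = 0.00108), and 16 had a log2 fold change below 0 (median -0.30). Without 2DC replicate 1 or 3DF replicate 2, 1 glycolysis gene was called lower, and without 3DF replicate 3, 2 were. GAPDH overlapped between the conditions (edgeR adjusted p = 0.238). Of 38 genes of glycosaminoglycan synthesis, 3 were higher (6 with library size alone) and 2 lower (median 0.23). The lower ones numbered 4 without 2DC replicate 1, 1 without 2DC replicate 2 and 5 without 3DF replicate 2. TMEM2, a cell surface hyaluronidase, rose from 4.13 ± 0.512 to 9.60 ± 0.320 FPKM and SULF1, a heparan sulfatase, fell from 24.7 ± 4.64 to 10.1 ± 0.464 FPKM (edgeR adjusted p = 0.000569 and 0.00101).

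Early response genes are switched on within minutes by growth factors or stress and then shut off. Of 32 tested, 12 were higher and 1 lower in 3DF (median 0.81). Both conditions had been digested before lysis, but only the 3DF cells were freed from a matrix and pelleted. FOS, a subunit of the AP-1 factor, had 237, 275 and 214 FPKM in 2DC and 809, 1361 and 688 in 3DF (log2FC 1.97 (SE 0.26, adjusted p = 0.00179 in edgeR)). In FOS, as in FOSB, JUN and KLF4, 3DF replicate 2 was the highest library. KLF4, a zinc finger factor, rose from 30.3 ± 2.99 to 179 ± 65.1 FPKM, SOCS3, a feedback inhibitor of cytokine signals, from 2.96 ± 0.704 to 21.2 ± 14.0 FPKM, and DUSP6, a phosphatase of ERK, from 1.53 ± 1.08 to 10.6 ± 2.94 FPKM (edgeR adjusted p = 0.000475, 0.00397 and 0.00399). ATF3 rose by 2.79 on the log2 scale (edgeR adjusted p = 0.00328). EGR1, a factor of the same wave, had 633, 664 and 573 FPKM in 2DC and 699, 1015 and 607 in 3DF and was not called (edgeR adjusted p = 0.355). DUSP2, a nuclear phosphatase, was the lower gene, at 15.2 ± 3.27 to 6.30 ± 2.98 FPKM (edgeR adjusted p = 0.0281), with no call without 2DC replicate 1 (adjusted p = 0.0602), without 2DC replicate 2 (adjusted p = 0.109) and without 3DF replicate 3 (adjusted p = 0.0956). JUN rose from 353 ± 23.7 to 777 ± 398 FPKM (edgeR adjusted p = 0.0409), a call lost with the prefix term (log2FC 0.91), without 2DC replicate 1 (adjusted p = 0.105), without 2DC replicate 2 (adjusted p = 0.114), without 2DC replicate 3 (adjusted p = 0.121) and without 3DF replicate 2 (log2FC 0.62). None of 15 heat shock genes tested was called by edgeR (6 at an unadjusted p under 0.05), nor any of these 15 by DESeq2, which called 1 listed gene outside them higher. HSPA8, a constitutive chaperone, had 187, 211 and 254 FPKM in 2DC and 328, 267 and 266 in 3DF (edgeR adjusted p = 0.127).

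FOS and EGR1 differed by far more between the 2D dishes with and without digestion than between 3DF and 2DC. In 2DC_L, lysed directly, FOS had 0.311, 0.251 and 0.343 FPKM and EGR1 2.42, 2.17 and 3.17, against 633, 664 and 573 for EGR1 in 2DC. The cells of 3DF and 3DF_50 were all digested, and no directly lysed 3D library is among the 15. What the digestion added to the levels in 3DF therefore cannot be told apart from the effect of the matrix.

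**Figure D4:**
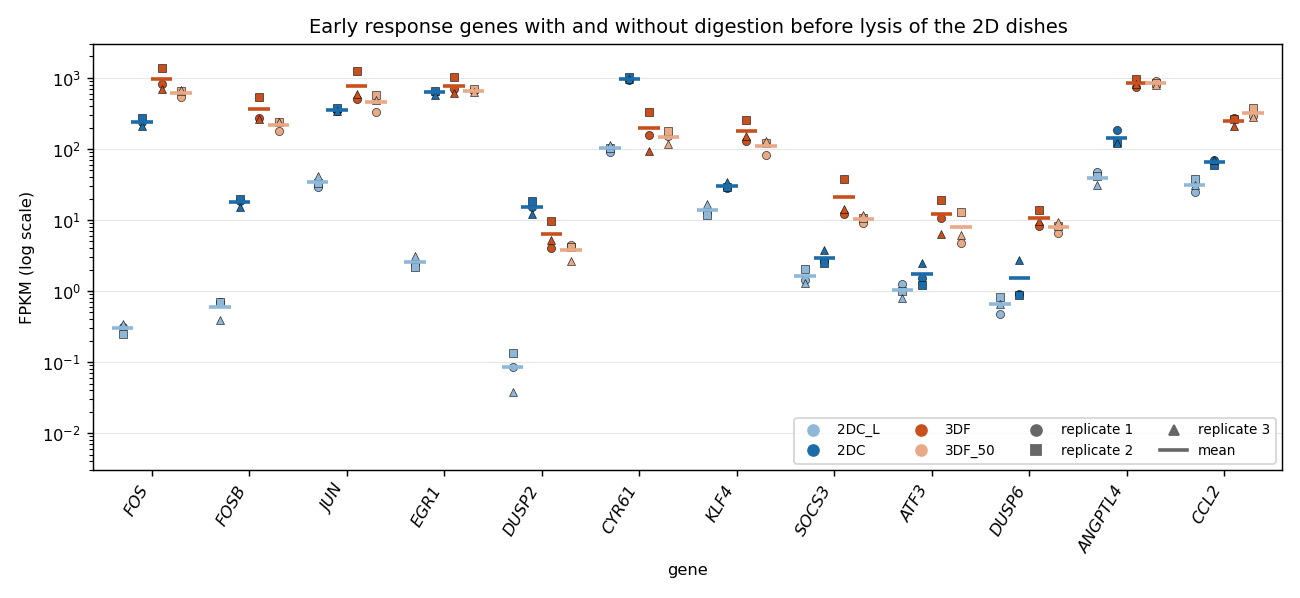
FPKM on a log scale for early response genes and 2 further genes in the 3 libraries each of 2DC_L (light blue, not digested), 2DC (blue), 3DF (orange) and 3DF_50 (light orange), with a marker shape for each replicate and a short line at each mean. FOS, FOSB, EGR1 and DUSP2 are lowest in 2DC_L by a wide margin, and CYR61 is highest in 2DC among the conditions plotted.

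The summed levels of the leukocyte and corneal epithelium lists were low, but most of the epithelial genes tested were higher in 3DF. Some genes on the endothelial lists were not low, such as COL8A2, SLC4A4 and KDR. The corneal endothelium list summed to 490 to 606 FPKM in 2DC and 289 to 348 in 3DF. Of 16 epithelial genes tested, 10 were higher and none lower (median 2.22). Genes near 0 in 2DC, such as KRT12, were tested only because of their 3DF reads, so the filter partly sets this share and median. KRT12, the keratin of differentiated corneal epithelium, had 0 reads in every 2DC library and 2.47, 4.40 and 3.72 FPKM in 3DF, at least 156-fold higher (3 reads over the condition as the floor, edgeR adjusted p = 0.000372). KRT3, its partner keratin, had 0.0143, 0.0763 and 0.0759 FPKM in 2DC and 0.988, 1.52 and 1.25 in 3DF, and KRT5, a keratin of basal cells, had 0.0405, 0.0325 and 0.646 FPKM in 2DC and 3.54, 6.19 and 3.57 in 3DF (edgeR adjusted p = 0.000683 and 0.00946). CRCT1, SFN, CDH1, DSC2, PERP and DSP were further DEGs. Of the defining markers, EPCAM was at 0 in 2DC replicates 1 and 2 and reached 0.169 FPKM in 3DF, and TP63 was not called (edgeR adjusted p = 0.316). Over the 24 listed genes in the table the summed level was 29.8 to 35.6 FPKM in 2DC and 52.1 to 58.5 in 3DF, against 22.8 to 36.0 in 3DF_50. In 3DF_50, KRT12 had 0, 0 and 2.13 FPKM. With a term for the library prefix, 5 epithelial genes were called, and KRT3 (adjusted p = 0.0556) and CDH1 (adjusted p = 0.128) were not. In bulk RNA more cells of a type and more RNA per cell cannot be told apart, and the part of epithelial cells in the other differences was not tested.

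For leukocytes 4 markers had enough reads to be tested, and none was called by edgeR (0 at an unadjusted p under 0.05) or DESeq2. PTPRC, their common marker, stayed at 0.116 FPKM or less in all 6 libraries, and PECAM1, a marker of vascular endothelium, at 0.0403 FPKM or less, although KDR, on the same list, was a DEG. TIE1, on that list too, was called lower (edgeR adjusted p = 0.029) but not without 2DC replicate 2 (adjusted p = 0.0905), without 2DC replicate 3 (adjusted p = 0.103), without 3DF replicate 2 (adjusted p = 0.0665) and without 3DF replicate 3 (adjusted p = 0.0873). SOX10, a factor of Schwann cells, was at 1.16, 0.747 and 0.194 FPKM in 2DC and 1.04, 0.648 and 1.22 in 3DF, with overlap, and of 7 Schwann cell genes only PMP22, a membrane protein that fibroblasts also make, was called, lower in 3DF (edgeR adjusted p = 0.000599). Of 6 genes of corneal endothelium, COL8A2 and the bicarbonate transporter gene SLC4A4 were lower, the latter from 59.5 ± 8.85 to 24.8 ± 4.30 FPKM (edgeR adjusted p = 0.00202), and SLC4A11 overlapped (edgeR adjusted p = 0.401).

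Most DEGs of 3DF vs. 2DC were called in the same direction in other libraries that differed in culture format. The comparison of 3DF_50 with 2DC_L uses none of the 6 libraries described so far, but it differs from 3DF vs. 2DC in cell density and in digestion. Each of its libraries except 3DF_50 replicate 2 also has a name prefix that recurs among those 6 libraries. The comparison gave 1801 DEGs of 13321 genes tested (13.5%), 673 higher and 1128 lower. Of the 437 genes higher in 3DF, 393 were tested there and 278 were called higher again, and none was called lower. Of the 583 lower genes, 569 were tested, 513 were called lower and 3 were called higher. The DEGs with the same direction in both numbered 791, which is 77.5% of the DEGs of 3DF vs. 2DC and 43.9% of those of 3DF_50 vs. 2DC_L. With library size alone, 3DF_50 vs. 2DC_L turned to 1357 higher and 747 lower. NID2 had a log2FC of -5.74 (SE 0.19, adjusted p = 6.81e-08 in edgeR) there, TLR4 of 3.75 (SE 0.21, adjusted p = 1.34e-06 in edgeR) and TM7SF2 of -4.67 (SE 0.19, adjusted p = 2.37e-07 in edgeR). COL1A1 had -2.33 and TNC -7.91. For MKI67 there was no read in the 3DF_50 libraries. Of the 12 genes that rose most, CTHRC1 was not called, with 3.86, 1.56 and 8.16 FPKM in 3DF_50 against 0.680, 1.27 and 3.28 in 2DC_L. MATN4, SPON1, KDR, EDNRA and TNFSF10 were not called there either. Of the 16 epithelial genes tested in 3DF vs. 2DC, with 10 higher, 1 was called higher in 3DF_50 vs. 2DC_L. In this count, any gene with too few reads to be tested there stands as not called.

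**Figure D5:**
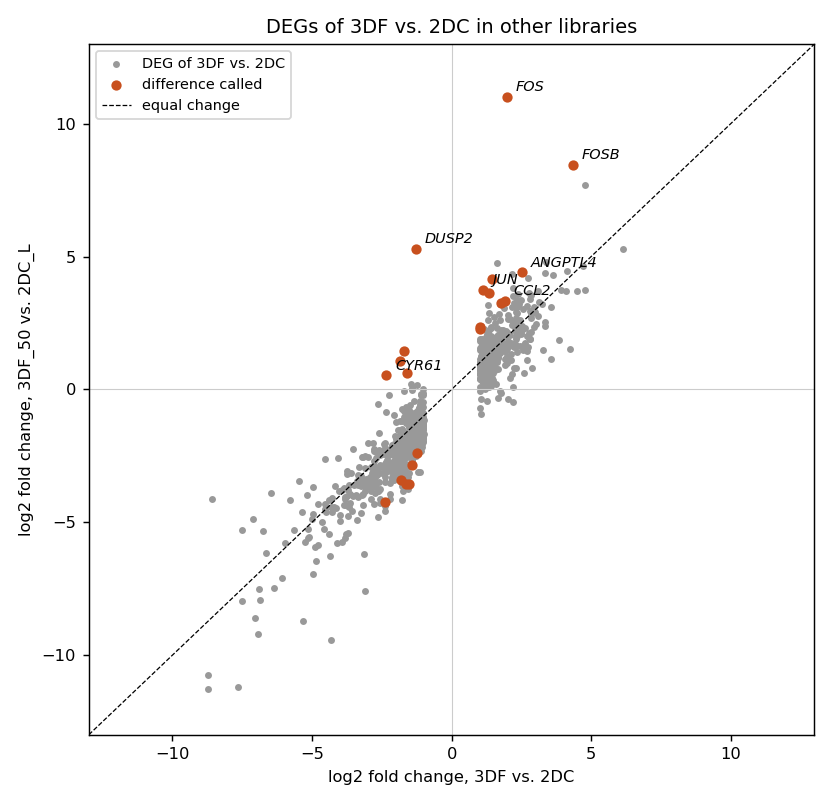
Each point is a DEG of 3DF vs. 2DC that was also tested in 3DF_50 vs. 2DC_L, with the log2 fold change of the former on the x axis and of the latter on the y axis, and the dashed line marks equal change. Most points lie in the quadrants of equal direction, and orange points are genes whose change differed between the comparisons, among them FOS, FOSB, DUSP2 and CYR61 far above the line.

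A test of the difference between the changes called 46 of 14081 genes (0.327%, edgeR adjusted p of 0.05 or less), 34 with a smaller or more negative change in 3DF vs. 2DC and 12 with the opposite. Of the 32 early response genes 13 were called. FOS rose by 11.02 in 3DF_50 vs. 2DC_L against 1.97 in 3DF vs. 2DC, a difference of -9.06 (SE 0.38, adjusted p = 1.08e-08 in edgeR), and for EGR1 the difference was -7.72 (SE 0.28, adjusted p = 4.63e-09 in edgeR). DUSP2, lower in 3DF than in 2DC, was higher in 3DF_50 than in 2DC_L, with 0.0867, 0.133 and 0.0378 FPKM in 2DC_L and 4.51, 4.15 and 2.61 in 3DF_50. CYR61 had 89.6, 103 and 114 FPKM in 2DC_L and 152, 177 and 116 in 3DF_50, below the level of 2DC, 979 ± 42.0 FPKM, which was near that of 2DF, 959 ± 165 FPKM (difference -2.88 (SE 0.47, adjusted p = 0.0155 in edgeR)). IER2, ZFP36, EGR2, EGR3, DUSP1, DUSP5, BTG2, IER3 and NR4A1 were called in the same direction, and they were named after their values were seen. For NID2 the difference was 0.48 (SE 0.23, adjusted p = 0.386 in edgeR) and did not pass the threshold.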

How the data were processed

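The authors sequenced RNA of the 15 libraries, aligned the reads to oryCun2 with HISAT2 2.0.5 and counted them per gene with featureCounts 1.5.0-p3. The deposited counts are whole reads per gene without normalization, for 23428 genes, of which 15408 have a symbol. The deposited FPKM values rest on the same counts, scaled by the length of the gene and by a library size of the authors' choice (0.921 to 1.24 times the total). Conditions were read from the labels.

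Counts were tested with edgeR 4.0.16 in R 4.3.3 (quasi-likelihood F test, two-sided, TMM scaling, filterByExpr with a minimum count of 10, 3DF and 2DC only, no block), and p-values were adjusted over all genes tested. The same fit was made for 3DF_50 vs. 2DC_L, and the difference was a contrast over the 4 conditions. The SE is the log2 fold change divided by the square root of F. On simulated counts of 13493 genes for 3DF vs. 2DC, with 200 genes changed by 2 on the log2 scale, edgeR recovered 91.5% with 7 false calls and DESeq2 1.42.0 recovered 91% with 14. For the difference (14081 genes) edgeR recovered 80% with 11 false calls. Apart from these changes, with as many genes raised as lowered, all simulated libraries shared the same mean for each gene. The shift in composition between 2DC and 3DF, and changes near the threshold of 1, were not simulated.

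Genes named are the 12 DEGs with the largest change in each direction (a symbol, at least 5 FPKM in the higher condition, no overlap), and in each gene list its key genes and up to 5 DEGs in each direction, with cell type markers. The comparison, the lists and the rules were chosen with earlier results of these data known. The alternatives were DESeq2, its size factors, library size alone, no filter, a mean of 1 CPM, all 5 conditions, a replicate block, all 5 conditions with a term for the library-name prefix, other thresholds, and leaving out each library. Library size without the 10 largest genes was added after the data were seen. The only prefix that 2DC and 3DF share is that of 2DC replicate 3 and 3DF replicate 1, and its meaning is not given in the sources used here, so prefix and condition are largely confounded. Reads on paralogs, and on overlapping or antisense genes, cannot be told apart where counting did not separate them. Intervals on ratios are exact and cover counting error only. Reads and sequences were not analysed here. Some genes of the lists are not reported here by name, though the counts and medians of the lists include them.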

Additional observations from a re-analysis of the deposited data

Results flagged for a closer look

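In 8 of the genes named by the rules given above, the change from 2DC to 3DF differed from the change from 2DC_L to 3DF_50, by a test of the difference itself (edgeR, adjusted p of 0.05 or less). The difference of the log2 fold changes was -9.06 for FOS, -7.72 for EGR1, -6.58 for DUSP2, -4.13 for FOSB, -2.88 for CYR61, -2.62 for JUN, -1.90 for ANGPTL4 and -1.45 for CCL2. In all 8 the mean level in 2DC, which was digested, was above that in 2DC_L, which was not. These 8 are a part of the 46 genes called, of which 34 had a negative and 12 a positive difference. LAMA2, mentioned above among the lower DEGs, had a positive difference of 1.40 (SE 0.27, adjusted p = 0.0463 in edgeR). Its mean was 8.59 FPKM in 2DC and 9.71 in 2DC_L, and 3.23 in 3DF and 1.35 in 3DF_50. By the study's methods, 2DC and 2DC_L differ in digestion, and 3DF and 3DF_50 differ in the number of cells. The difference combines these steps, which were not tested singly. The mean of FOS was 242 FPKM in 2DC and 0.302 in 2DC_L, but 953 in 3DF and 619.8 in 3DF_50. The mean of EGR1 was 623 FPKM in 2DC and 2.59 in 2DC_L, but 774 in 3DF and 662 in 3DF_50.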

How the results depend on the processing

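Of the 213 named genes that were tested, 165 kept their direction and their side of the main thresholds in every alternative fit that tested them. None reversed. The other thresholds were not applied to single named genes, and the filter at a mean of 1 CPM left 196 named genes to compare, all unchanged. The DEGs of 3DF vs. 2DC numbered 750 to 1028 without 1 library (316 to 473 higher, 434 to 640 lower), lowest without 2DC replicate 2, and DESeq2 called 482 higher and 671 lower. Without a limit on the fold change 2073 genes passed (942 higher, 1131 lower), and at an adjusted p of 0.01 there were 637 DEGs (274 higher, 363 lower). For 3DF_50 vs. 2DC_L, library size alone gave 1357 higher and 747 lower, and no limit on the fold change gave 5713 (2774 higher, 2939 lower). The 46 genes of the difference were 287 with DESeq2, 95 without a filter, 26 with the prefix term, and 25 to 77 without 1 library: 25 without 2DC replicate 2 or 3DF_50 replicate 2, 26 and 28 without 2DC_L replicates 1 and 3, 29 without 2DC replicate 3, and 77 without 3DF_50 replicate 3. The cause was not tested. Replicate numbers did not clearly pair the libraries of 3DF vs. 2DC. Correlations of deviations from the condition means were -0.02, 0.13 and -0.01 for equal numbers and -0.10 to 0.08 for unequal numbers. For 3DF_50 vs. 2DC_L they were 0.14, 0.08 and 0.26 for equal and -0.18 to 0.08 for unequal numbers. The value of 0.26 belongs to the libraries of replicate 3, which share a prefix. The highest value for unequal numbers, 0.08 in each comparison, also belongs to libraries that share a prefix. Whether 3DF_50 vs. 2DC_L was paired is not settled by these values. The replicate block gave 3DF vs. 2DC 415 higher and 591 lower DEGs, and 3DF_50 vs. 2DC_L 683 and 1156. The prefix term gave 432 and 727 for 3DF vs. 2DC. With 3 libraries in each condition, low genes such as MKI67 rest on 0 to 3 reads in 3DF.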
